A study of Mus musculus with 18 samples.

Results

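The fusion of a sperm with an egg and the waking of the egg that follows were followed here through 7 genes, Izumo1r, Cd9, Cd81, Astl, Itpr1, Trpm7 and Cacna1h. They were taken by gene symbol from the deposited TPM table (transcript abundance, that is reads divided by gene length and scaled to the same sum in every library), in which they are 7 of 28252 genes. All 7 were also found among the 53715 genes with read counts.

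RNA was sequenced from 18 libraries of mouse oocytes, with 3 libraries in each of 6 groups, and all were labelled as in vivo material of the C57Bl/6j x CBA/J strain. The stages were oocytes from primordial follicles (the resting store), oocytes from primary follicles (the earliest growing follicles) and MII oocytes, which are arrested at metaphase II of meiosis and await a sperm. Each stage was sampled after sham and after NTY treatment, the second a label left unexplained, and neither ages nor further alleles are given. Whether replicates came from separate animals is not stated, so p-values measure only the spread between libraries. By the labelled protocol, microdissected cells were pooled from several caps for each oocyte stage, their RNA was amplified (Ovation PICO) and libraries were captured with TruSeq RNA Access, whereas collected oocytes went through Smart-seq II. It was inferred that the 12 primordial and primary libraries are the microdissected ones, and between them and the 6 MII libraries the stage and the library method cannot be told apart.

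Oocyte markers summed to a median of 431 CPM (counts scaled to the library total) in the 12 microdissected libraries and 6982 CPM in the MII libraries. The library labelled primordial NTY replicate 3 went against its label, since its 12 oocyte markers summed to 2.74 CPM and 7 of them, among them Ddx4 and Zp3, were at 3 counts or fewer. Granulosa markers had a median of 2168 CPM and stroma markers 3467 CPM in the microdissected libraries, against 39.4 and 0.169 CPM in MII oocytes, and somatic marker RNA was thus present in the follicle libraries. The 4 endothelium markers summed to 109 to 173 CPM in MII oocytes, and most of this came from Pecam1 (89.8 to 135.8 CPM). Kdr stood there at 5.51 to 12.4 CPM, Tek at 4.92 to 25.6 CPM and Cdh5 at 0. Primary NTY replicates 2 and 3 carry nearly the same library code, so their independence is in doubt. Library totals ran from 15149564 to 29205503 counts in the microdissected libraries and from 8652089 to 9978830 in MII oocytes. The level that 3 counts can show was therefore 0.103 to 0.347 CPM, which covers counting error only. In such bulk samples, fewer cells of a type and less RNA per cell cannot be told apart.

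When a sperm meets the egg, IZUMO1 on the sperm binds JUNO, the product of Izumo1r, and the tetraspanins CD9 and CD81 in the egg membrane take part in fusion. The sperm then delivers a phospholipase that leads to repeated release of calcium from the endoplasmic reticulum through the inositol trisphosphate receptor ITPR1, and the channels TRPM7 and CaV3.2 (Cacna1h) bring in calcium from outside that refills the store. Calcium makes the cortical granules release ovastacin, the product of Astl, a protease that cleaves the zona protein ZP2 so that no further sperm bind.

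The order of the genes differed by stage, given here as levels with no test. In the MII libraries Astl, Cd9 and Izumo1r had the highest median TPM of the 7, whereas Cd81 was the lowest. The median TPM in MII oocytes was 179 for Astl, which put it at percentile 95.0 of the 15188 genes above 0 there, and 0.592 for Cd81, at percentile 16.5. Over both treatments, the highest medians in oocytes from primordial follicles were those of Cd9 (279 TPM) and Itpr1 (191 TPM). The Cd9 value lies between treatments that did not overlap, with medians of 434 TPM in sham and 10.4 TPM in NTY. In primordial NTY libraries Cd81 (153.1 TPM) and Itpr1 (152.6 TPM) had the highest medians instead. In oocytes from primary follicles the highest median was that of Cd81 (258 TPM). Izumo1r was the lowest of the 7 at both follicle stages.

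**Figure D1:**
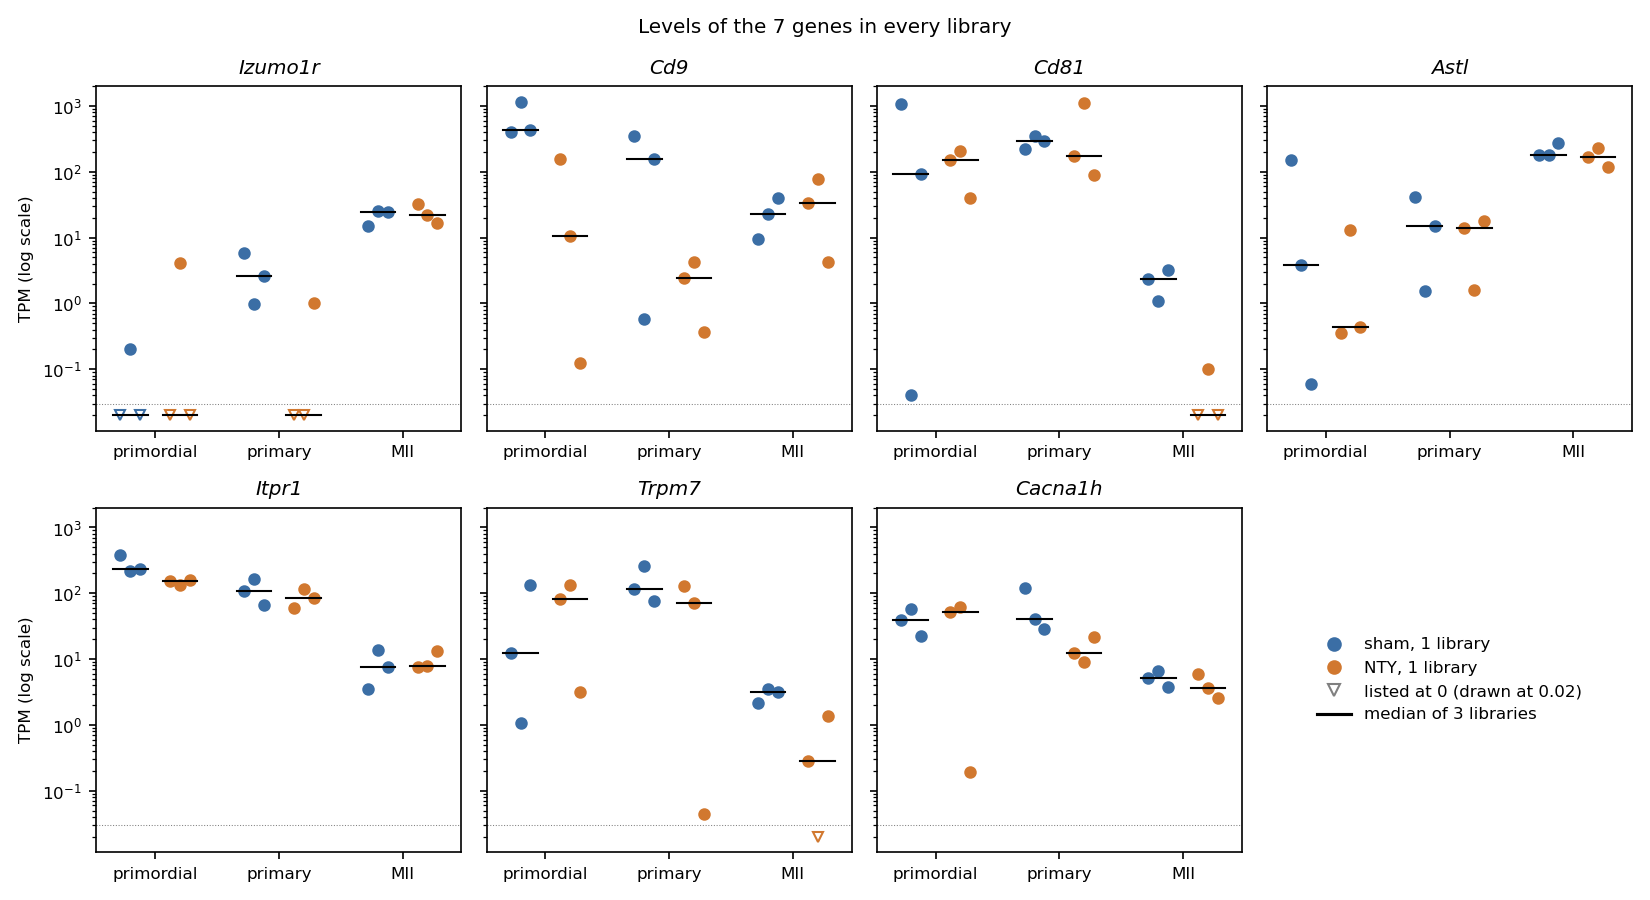
TPM on a log axis for each of the 7 genes in all 18 libraries, by stage (horizontal axis) and treatment (colour), with 1 point for each library and a bar at the median of 3 libraries; open triangles mark libraries in which the gene is listed at 0. In the MII libraries Astl lies between 116 and 275 TPM and Izumo1r between 15.0 and 32.7 TPM, whereas Cd81 does not exceed 3.20 TPM.

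To set genes of opposite pattern beside each other, the 250 bases before the annotated start of Izumo1r and Astl, which stood higher in MII than in primary follicle libraries, and of Cd81, which stood lower, are shown 5′ to 3′ along the gene's strand (RefSeq, GRCm38.p6). They lie at chr9:14903768-14904017 on the minus strand, chr2:127338389-127338638 on the plus strand and chr7:143052500-143052749 on the plus strand. By the GENCODE positions given below, Izumo1r starts at 14903949 and Cd81 at 143052739. Most of the Izumo1r window and the last bases of the Cd81 window therefore lie inside the gene as GENCODE places it. Capitals mark the E-box, CANNTG read on both strands, the motif of basic helix-loop-helix factors such as FIGLA.
Izumo1r: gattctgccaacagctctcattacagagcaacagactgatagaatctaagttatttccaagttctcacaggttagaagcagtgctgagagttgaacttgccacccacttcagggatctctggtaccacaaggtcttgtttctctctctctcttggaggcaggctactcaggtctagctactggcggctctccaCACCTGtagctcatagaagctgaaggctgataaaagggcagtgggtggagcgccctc
Astl: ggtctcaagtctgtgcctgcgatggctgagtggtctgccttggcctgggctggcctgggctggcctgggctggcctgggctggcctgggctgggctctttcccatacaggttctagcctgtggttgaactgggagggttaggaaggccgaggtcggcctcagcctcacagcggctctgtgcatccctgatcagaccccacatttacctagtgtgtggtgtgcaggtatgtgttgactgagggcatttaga
Cd81: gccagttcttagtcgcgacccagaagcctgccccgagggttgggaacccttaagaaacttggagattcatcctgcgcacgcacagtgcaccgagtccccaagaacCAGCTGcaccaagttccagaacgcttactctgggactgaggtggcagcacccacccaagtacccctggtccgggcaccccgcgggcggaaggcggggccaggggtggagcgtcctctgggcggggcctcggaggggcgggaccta
The E-box letters occurred 1 time before Izumo1r, 0 times before Astl and 1 time before Cd81. Such letters are found in 66.0% of the windows of the same length before 27025 genes, so their presence sets none of these genes apart. The Cd81 window held 16 CG pairs, against 2 for Izumo1r and 4 for Astl and a median of 6 over all windows. Of the other members, Cd9 had 16 and Trpm7 had 26.

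Izumo1r (ENSMUSG00000031933, chromosome 9 from 14885814 to 14903949 on GRCm38) encodes the sperm receptor. In primordial follicle libraries it was listed at 0, 0.202 and 0 TPM in sham replicates 1, 2 and 3 and at 0, 4.07 and 0 TPM in NTY. In primary follicle libraries it stood at 5.93, 0.969 and 2.57 TPM in sham and 0, 0 and 1.02 TPM in NTY. The gene had 3 counts or fewer in 6 of the 12 microdissected libraries and 133 counts or more in each MII library. The MII values were 15.0, 25.6 and 24.3 TPM in sham and 32.7, 22.1 and 16.9 TPM in NTY, so every MII library exceeded every microdissected library, and within MII oocytes sham and NTY overlapped.

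Cd9 (ENSMUSG00000030342, chromosome 6 from 125460266 to 125494791) encodes a tetraspanin of the egg surface and is also made by many somatic cells. It stood at 404, 1162 and 434 TPM in primordial sham libraries and 154, 10.4 and 0.124 TPM in primordial NTY libraries, and the groups did not overlap. In primary follicle libraries it was 350.1, 0.582 and 157 TPM in sham and 2.40, 4.24 and 0.366 TPM in NTY. Sham replicate 2 lay among the NTY libraries there, so these groups overlapped. In MII oocytes it was 9.38, 22.8 and 39.3 TPM in sham and 33.9, 76.3 and 4.33 TPM in NTY, the widest relative range of the 7 genes among those with no MII library at 0.

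Cd81 (ENSMUSG00000037706, chromosome 7 from 143052739 to 143067934) encodes a tetraspanin related to CD9. It stood at 1059.8, 0.0408 and 91.7 TPM in primordial sham libraries and at 153, 207 and 39.4 TPM in primordial NTY libraries. It stood at 221, 345 and 295 TPM in primary sham libraries and at 176, 1122 and 88.2 TPM in primary NTY libraries. Sham and NTY overlapped at both of these stages, and primordial sham replicate 2 had 1 count of the gene where replicate 1 had 14396. In MII oocytes it was 2.38, 1.08 and 3.20 TPM in sham and 0, 0.100 and 0 TPM in NTY. All MII libraries thus lay below all primary follicle libraries, and the MII sham libraries above the MII NTY ones.

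Astl (ENSMUSG00000050468, chromosome 2 from 127338639 to 127357651) encodes ovastacin of the cortical granules. Its primordial values were 149, 3.90 and 0.0607 TPM in sham and 0.350, 12.9 and 0.446 TPM in NTY. Its primary values were 40.9, 1.55 and 15.0 TPM in sham and 14.1, 1.58 and 17.9 TPM in NTY. The MII values of 181, 177 and 275 TPM in sham and 167, 229.7 and 116 TPM in NTY were above those of every primary follicle library, while primordial sham replicate 1 lay within the MII range.

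Itpr1 (ENSMUSG00000030102, chromosome 6 from 108213096 to 108551109), the calcium release channel, varied least among the microdissected libraries. Its values were 378, 221 and 235 TPM in primordial sham and 153, 133 and 161 TPM in primordial NTY libraries, with no overlap. In primary follicle libraries they were 109.5, 165 and 66.5 TPM in sham and 58.9, 117 and 83.7 TPM in NTY, which overlapped. The highest of the 12 was 6.42 times the lowest, whereas this ratio was 622 for Cacna1h, the next lowest of the 6 members with no microdissected library at 0. MII oocytes had 3.53, 13.9 and 7.57 TPM in sham and 7.52, 7.78 and 13.4 TPM in NTY, all below the microdissected libraries.

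Trpm7 (ENSMUSG00000027365, chromosome 2 from 126791565 to 126876230) encodes a channel for divalent cations joined to a kinase. It was at 12.3, 1.07 and 134 TPM in primordial sham and 82.5, 132 and 3.16 TPM in primordial NTY libraries. It was at 117, 258 and 76.6 TPM in primary sham and at 129.7, 70.3 and 0.0441 TPM in primary NTY libraries, of which replicate 3 had 4 counts. In MII oocytes it was at 2.13, 3.49 and 3.12 TPM in sham and 0.284, 0 and 1.38 TPM in NTY. Sham was above NTY in MII oocytes without overlap, and the low primary NTY library lay within the MII NTY range.

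Cacna1h (ENSMUSG00000024112, chromosome 17 from 25374285 to 25433783) encodes the pore of a T-type calcium channel. Primordial sham libraries had 39.1, 57.4 and 22.4 TPM and primordial NTY libraries 51.9, 61.9 and 0.195 TPM, where the low value is that of replicate 3. Primary sham libraries had 121, 40.1 and 28.9 TPM and primary NTY libraries 12.5, 9.16 and 22.0 TPM, without overlap. MII oocytes had 5.16, 6.57 and 3.77 TPM in sham and 5.87, 3.63 and 2.57 TPM in NTY, all below the primary follicle libraries.

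Replicates of the follicle stages lay far apart. Cd81 and Astl in primordial sham, Cd9 in primordial NTY and in primary sham, and Trpm7 in primary NTY each had at least 1000 counts in 1 replicate and at most 10 in another. Among members with 1000 counts or more in a library these were 2 of 6 for primordial sham, 1 of 5 for the NTY libraries of that stage, 1 of 5 for primary sham and 1 of 4 for primary NTY. The shares over all genes of that depth were 48.9%, 49.3%, 19.6% and 49.8% in the same order, so such gaps were common across the transcriptome. In MII oocytes no member did so and at most 0.0434% of genes. The median coefficient of variation of all genes above a mean of 10 CPM was 84.1% to 130.0% in the microdissected groups and 27.1% and 39.8% in MII sham and NTY.

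MII oocytes were compared with primary follicle oocytes to ask how the genes stand at the stage that awaits a sperm. The calcium channel gene Itpr1 and the tetraspanin gene Cd81 were lower in MII libraries in both treatments and Trpm7 in NTY. No member passed as higher in the fit given next, though some did under alternative settings given below. MII and primary follicle libraries were, by the inference above, also prepared by different protocols. The part of preparation in any difference between them was not tested. In the edgeR quasi-likelihood fit of all 18 libraries with Benjamini-Hochberg adjustment over all genes, Cd81 and Itpr1 passed an adjusted p of 0.05 in sham, 2 of 7 members, where 23.0% of 15929 genes passed, 2789 higher and 871 lower. In NTY, Cd81, Itpr1 and Trpm7 passed, 3 of 7, where 30.6% of genes did, 3528 higher and 1354 lower. The share of members called was near the background, and all those called lay on the side with fewer calls. All fold changes of this contrast rest on the scaling, since the median log2 fold change of all genes was 0.84 in sham and 1.51 in NTY with TMM factors, and 2.46 and 2.93 with RLE factors. A change of factors moves all genes by about the same amount, so the distance of a gene from that median stays nearly fixed. For Itpr1 in sham this distance was -5.03 with TMM and -5.04 with RLE, which is no check of its call.

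The log2 fold change of Itpr1 was -4.20 ± 0.93 in sham (adjusted p = 0.0179, edgeR) and -4.08 ± 0.92 in NTY (adjusted p = 0.0157, edgeR). Every MII library lay below every primary one. Here and below, ± gives an approximate SE that edgeR does not report. It is the size of the log2 fold change divided by the square root of the test's F statistic. Without MII sham replicates 1, 2 or 3, or without primary sham replicate 2, the edgeR adjusted p in sham was 0.0538, 0.0569, 0.0566 and 0.0618. It was 0.0539 without the filter on low counts. With RLE factors it was 0.0784 in sham and 0.0505 in NTY. The range over all alternatives was 1.13e-05 to 0.0784 in sham and 0.00102 to 0.0505 in NTY.

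Cd81 had 18750 counts over the 3 primary sham libraries and 70 over the 3 MII sham libraries, a ratio of CPM of 109.0 (95% exact interval 86.3 to 139.9, counting error only). The fitted log2 fold change was -7.32 ± 2.20 (adjusted p = 0.0287, edgeR). Leaving out any of the 6 libraries took this edgeR adjusted p over the threshold, to between 0.0678 (without primary sham replicate 1) and 0.101 (without MII sham replicate 2), with 0.0747 and 0.0678 without primary sham replicates 2 and 3 and 0.0863 and 0.0895 without MII sham replicates 1 and 3. It was 0.0505 with a replicate block and 0.0541 with RLE factors. In NTY the counts were 29151 and 1, a ratio of 10782 (95% exact interval 1935 to 425868, counting error only). Primary NTY replicate 2 alone held 23087 of the 29151 counts. The edgeR adjusted p in NTY was 0.00826 and stayed under 0.05 in all 14 alternatives, from 7.39e-10 to 0.0390.

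Trpm7 had a log2 fold change of -6.12 ± 2.33 in sham (adjusted p = 0.0622, edgeR) and -7.72 ± 2.50 in NTY (adjusted p = 0.0322, edgeR). The NTY call was lost without any of MII NTY replicates 1, 2 and 3 and primary NTY replicates 1 and 2, with edgeR adjusted p of 0.0916, 0.0762, 0.0516, 0.0673 and 0.0577. It was also lost with voom (0.0890), a replicate block (0.0537), limma on log2(TPM + 1) (0.105) and only the groups compared (0.0895), so that it held in 5 of 14 alternatives, with adjusted p from 0.000853 to 0.105. In sham Trpm7 passed in 4 of 13 alternatives. Cacna1h stood at -3.78 ± 1.55 in sham (adjusted p = 0.0780, edgeR) and -2.70 ± 1.48 in NTY (adjusted p = 0.149, edgeR), and passed in 3 of 13 and 0 of 14 alternatives. Whether any of these effects differed between sham and NTY was not tested.

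Astl and Izumo1r did not pass this test. In TPM they were the 2 of 7 members higher in MII sham without overlap, as were 41.4% of genes, and with Cd9 the 3 of 7 higher in MII NTY, as were 35.7%. Cd81, Itpr1, Trpm7 and Cacna1h, 4 of 7, were lower in MII sham without overlap, as were 18.3% of genes, and these but Trpm7, 3 of 7, in NTY, as were 8.68%. With TMM library sizes Cd9 overlapped in NTY. Astl had a log2 fold change of 3.38 ± 2.05 in sham (adjusted p = 0.221, edgeR) and 3.13 ± 2.02 in NTY (adjusted p = 0.219, edgeR). Izumo1r had 2.61 ± 2.19 in sham (adjusted p = 0.382, edgeR) and 5.36 ± 2.49 in NTY (adjusted p = 0.0953, edgeR). Cd9 stood at -2.96 ± 1.94 in sham (adjusted p = 0.257, edgeR) and 2.94 ± 1.94 in NTY (adjusted p = 0.227, edgeR), of opposite sign between treatments. Over the alternatives Astl passed in 4 of 13 in sham and 2 of 14 in NTY, Izumo1r in 2 and 4, and Cd9 in 0 and 1. The granulosa and stroma sums given above fall with the same contrast, and their part in the lower values of Cd81, Itpr1, Trpm7 and Cacna1h was not tested.

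**Figure D2:**
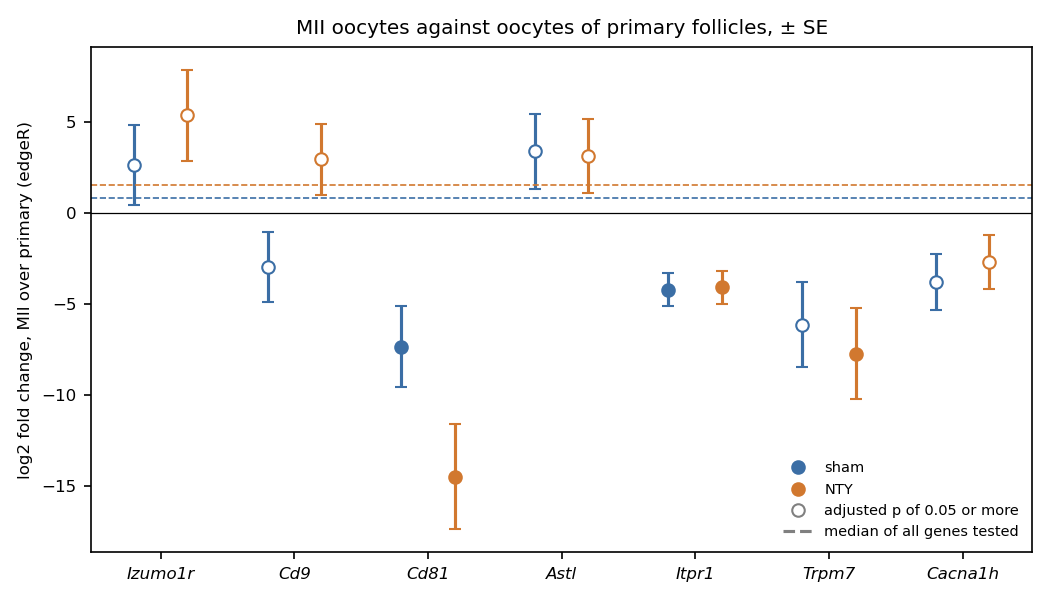
Log2 fold change of MII over primary follicle libraries (vertical axis, edgeR, bars are the standard error) for the 7 genes in sham and NTY, filled where the adjusted p was under 0.05; dashed lines give the median of all genes tested, 0.84 in sham and 1.51 in NTY. Cd81 and Itpr1 are filled in both treatments and Trpm7 in NTY, all below 0. The fitted value of Cd81 in NTY rests on 1 MII count and depends on the prior count of the fit. Library preparation also differs between the groups compared, and its part was not tested.

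Other genes of the same events were taken from 6 lists of 35 genes (zona proteins, egg surface, cortical granules, calcium store and entry, calcium decoding and meiotic exit, and zinc), of which 34 could be tested between MII and primary follicle libraries. In sham 2 were higher and 2 lower (adjusted p under 0.05, edgeR), 4 of 34 where 23.0% of all genes were called, with a median log2 fold change of -0.65 against 0.84 over all genes. In NTY 2 were higher and 5 lower, 7 of 34 where 30.6% of all genes were called, with a median of -1.23 against 1.51. The higher genes were Fbxo43, which holds the egg in metaphase until calcium arrives, and Wee2, a kinase needed to leave meiosis, in both treatments. Fbxo43 had 3428 to 5687 counts in the MII libraries and 0 to 10 in the microdissected ones, and Wee2 had 802 to 1224 CPM and 0 to 9.82 CPM.

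Calr, a calcium-binding protein of the endoplasmic reticulum, and Plcg1, a phospholipase that makes inositol trisphosphate, were lower in both treatments. Calr stood at 14.1 to 768 CPM in the microdissected libraries and at 16.1 to 37.1 CPM in MII oocytes, and Plcg1 at 96.9 to 556 CPM and 0 to 0.902 CPM. In NTY the calcium pump Atp2a2, the calmodulin gene Calm3 and Igsf8, a partner of CD9 and CD81, were lower too. Igsf8 was near the floor, with a median of 0.273 CPM in the microdissected libraries. It had 3 counts or fewer in primary NTY replicate 3 and in each MII NTY library. Of the other receptor genes of the Itpr1 family, Itpr2 had 201 to 585 CPM in MII oocytes and 4.43 to 246 CPM in the microdissected libraries. Itpr3 had 0 to 5.01 CPM and 0 to 162 CPM in the same order. Neither passed the test (edgeR adjusted p of 0.05 or more). In the zona list Zp1, Zp2 and Zp3, 0 of 3 passed in either treatment.

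**Figure D3:**
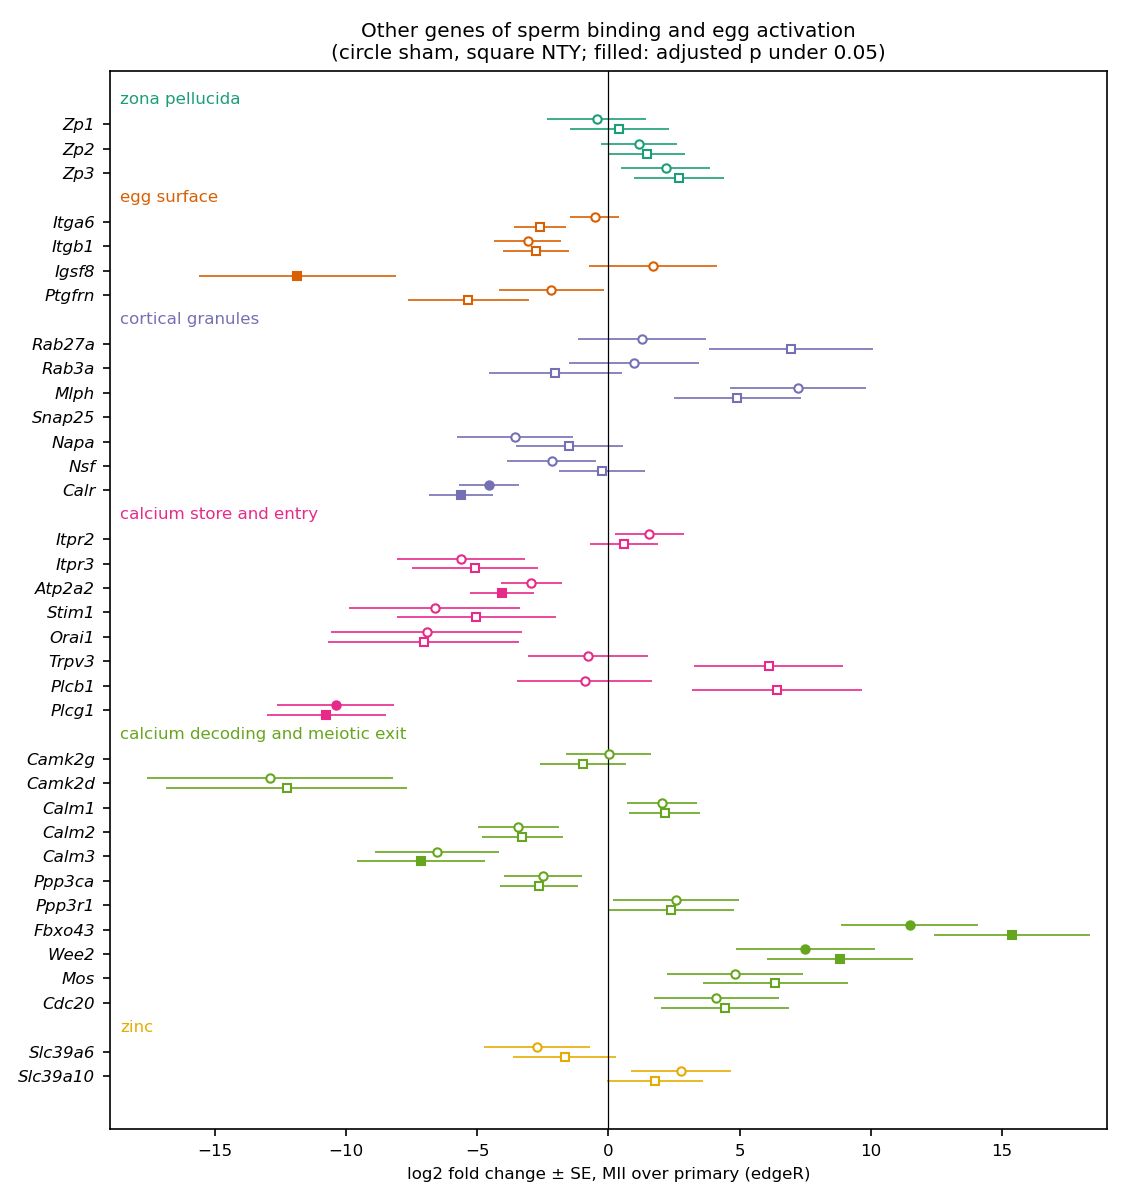
Log2 fold change of MII over primary follicle libraries (horizontal axis, edgeR) for the genes of 6 lists. Circles are sham, squares are NTY and filled symbols have an adjusted p under 0.05. Bars are the approximate standard error derived from the F statistic of the test. Snap25 was too low to test. Library preparation also differs between the groups compared, and its part was not tested. Fbxo43 and Wee2 are filled to the right in both treatments, Calr and Plcg1 to the left in both, and most other symbols are open.

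The step from primordial to primary follicles was compared within each treatment and as the mean of both. 0 of 7 members passed the edgeR test, where 1 of 10522 genes (0.0095%) passed in sham with 976 at an unadjusted p under 0.05, 0 (0.0%) in NTY with 1049 and 0 (0.0%) for the mean of both with 1132. DESeq2 called 503, 697 and 582 genes and 0 members, and 0 of 7 members had an unadjusted edgeR p under 0.05 in any of these. The log2 fold change for the mean of both treatments was -1.07 ± 0.83 for Itpr1 (adjusted p = 0.724, edgeR) and -3.30 ± 1.74 for Cd9 (adjusted p = 0.490, edgeR). With 1 library left out these ran from -1.40 to -0.90 for Itpr1 and from -3.80 to -1.51 for Cd9, whose value was -1.51 without primordial NTY replicate 1 and -3.62 without replicate 3, the library low in oocyte markers. Izumo1r in sham had 4.94 ± 2.93 (adjusted p = 0.682, edgeR), with 4 counts in all in the primordial sham libraries and 160 in the primary sham libraries, and 4.31 to 8.29 with 1 library left out (8.29 without primordial sham replicate 2).

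In TPM, Izumo1r was the member whose sham groups did not overlap with primary higher, as for 13.8% of genes. Cd9 and Itpr1, 2 of 7, did not overlap in sham with primary lower, as for 1.29% of genes. In NTY this held for Itpr1, 1 of 7, and for 5.16% of genes. Itpr1 was lower without overlap in both treatments, as were 11 of 10502 genes (0.105%). With TMM library sizes in place of plain totals, its NTY groups overlapped.

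On the log2(TPM + 1) scale the mean of Itpr1 was 7.65 in primordial and 6.57 in primary follicle libraries, a difference of -1.08, and -1.24 to -0.91 with any of the 12 libraries left out. It was -0.99 on log2(CPM + 1) with plain totals and -1.20 with TMM sizes. These are descriptions with no test, since Itpr1 was singled out after its groups were seen not to overlap and the edgeR test across all genes did not call it. An exact two-sided permutation of the stage labels within treatments gave p from 0.09 to 0.885 for the other 6 genes, unadjusted and run after values had been seen. The sham groups of Cd9 had also been seen not to overlap, so its p is a description too. Leaving out 1 library moved this exact permutation p between 0.005 (without primordial NTY replicate 3) and 0.195 (for example without primordial NTY replicate 1) for Cd9, with differences of -3.79 and -2.02, and the smallest difference was -1.72 (without primary sham replicate 2). For Cd81 it moved between 0.025 (without primordial sham replicate 1) and 0.545 (without primordial sham replicate 2), with differences of 3.06 and 0.56 around 1.93 for all libraries.

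Itpr1 moved together with the summed level of 4 endothelium markers over the 12 microdissected libraries (Pearson r = 0.768, a description over libraries that share the amplification). That sum was 0.510 to 831 CPM in primordial and 0.0430 to 42.3 CPM in primary follicle libraries. The highest value was that of primordial sham replicate 1, where it came from Tek while Pecam1, Cdh5 and Kdr were at 3 counts or fewer. In primordial sham replicate 2 (59.6 CPM) it came from Cdh5, with Pecam1, Kdr and Tek at 3 counts or fewer. In primary sham replicate 2 (42.3 CPM) it came mostly from Kdr, with Cdh5 and Tek at 3 counts or fewer. Pecam1 did not exceed 0.759 CPM in the 12 libraries, so the 4 markers did not rise together. The part of this sum in the Itpr1 difference was not tested. Of the members, Cacna1h had the highest r with the oocyte markers (r = 0.789), and it had r = -0.627 with the stroma markers. Primordial NTY replicate 3 was the lowest of the 12 libraries in both Cacna1h (0.555 CPM) and the oocyte marker sum (2.74 CPM). Values of r without this library were not computed, so how far they rest on it is not known. Cd81 had r from -0.138 to 0.242 with all 6 marker lists.

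**Figure D4:**
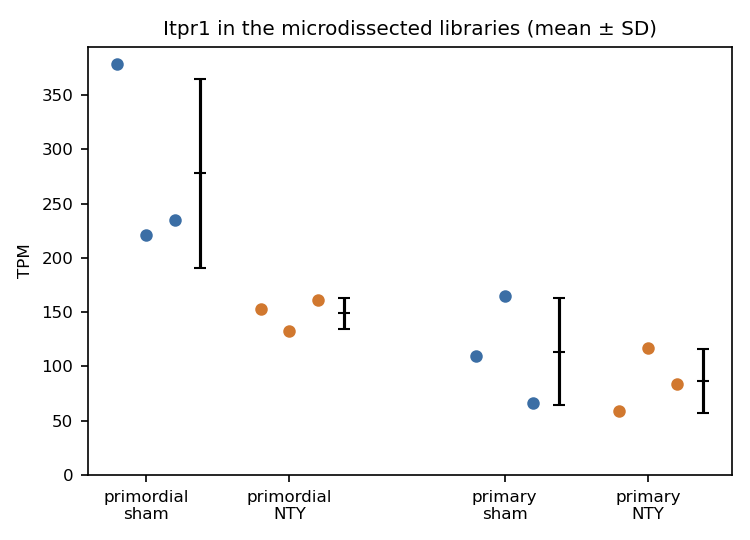
TPM of Itpr1 (vertical axis, from 0) in each primordial and primary follicle library of sham and NTY, with the mean and SD of 3 libraries beside the points. All 6 primordial values lie above the primary values of the same treatment, 221 to 378 against 66.5 to 165 TPM in sham and 133 to 161 against 58.9 to 117 TPM in NTY.

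NTY was compared with sham at each follicle stage to ask whether the treatment touched these genes, and 0 of 7 members passed. In primordial follicle libraries 1 of 10522 genes (0.0095%) passed the edgeR test and 1145 had an unadjusted p under 0.05, while DESeq2 called 760 genes and 0 members. In primary follicle libraries 0 genes (0.0%) passed, 858 had an unadjusted p under 0.05 and DESeq2 called 479 genes and 0 members. The test of whether the NTY effect differed between these stages called 1 gene (0.0095%), with 1246 unadjusted and 742 by DESeq2, and again 0 members by either tool. In all 3 tests 0 members had an unadjusted edgeR p under 0.05.

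Cd9 had a log2 fold change of -3.67 ± 2.50 in primordial follicle libraries (adjusted p = 0.631, edgeR) and -5.40 ± 2.72 in primary follicle libraries (adjusted p = 0.625, edgeR). With 1 library left out the first ran from -7.24 (without primordial NTY replicate 1) to -3.03 (without primordial sham replicate 2) and was -3.13 without primordial NTY replicate 3. The second was -5.50 when the counts of primary NTY replicates 2 and 3 were added into 1 library. Itpr1 had -0.71 ± 1.17 in primordial follicle libraries (adjusted p = 0.908, edgeR), from -1.21 without primordial NTY replicate 3 to -0.33 without primordial sham replicate 1. Cd9 and Itpr1, 2 of 7, were lower in primordial NTY without overlap in TPM, as were 2.73% of genes, and with TMM library sizes Itpr1 overlapped. In primary follicle libraries Cacna1h, 1 of 7, was lower in NTY without overlap, as were 13.7% of genes, and with TMM library sizes it overlapped too.

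In MII oocytes, where replicates were closest, the sham and NTY values of Izumo1r and Astl overlapped, while Cd81 and Trpm7 had fewer reads in each NTY library than in any sham library, though not past the adjusted threshold. The edgeR test called 0 of 7 members and 0 of 12209 genes (0.0%), with 280 genes and 1 member, Cd81, at an unadjusted p under 0.05, and DESeq2 called 29 genes and 0 members. Cd81 had 29, 11 and 30 counts in sham and 0, 1 and 0 in NTY, a ratio of 65.7 (95% exact interval 11.4 to 2633, counting error only), and its adjusted p was 0.903 (edgeR; range over alternatives 0.484 to 1.0). Trpm7 had 102, 139 and 115 counts in sham and 11, 0 and 53 in NTY, a ratio of 5.22 (95% exact interval 3.99 to 6.93, counting error only), with a log2 fold change of -2.20 ± 1.36. Replicate 3 held 53 of the 64 NTY counts of Trpm7, and the log2 fold change was -4.29 without it and -1.62 without NTY replicate 2, the ends of the range with 1 library left out. Both were lower in NTY without overlap in TPM, 2 of 7, as were 5.52% of genes.

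Cd81 was not the only gene counted in MII sham libraries but nearly absent from MII NTY libraries. At least 10 counts in each sham library and at most 1 in each NTY library was found for 139 of the 10596 genes with such counts in sham (1.31%), and the reverse for 0 of 8599. Cd81 is among the 139 by the choice of cutoffs, which lie at its own counts (11 or more in sham, at most 1 in NTY). The sham libraries also detected more genes, 15442, 18239 and 16142 against 13608, 12926 and 12782, at totals of the same size. Their 6 stroma markers summed to 2.61, 2.91 and 0.337 CPM, where the NTY libraries had 0 in all 3. The part of either in the Cd81 and Trpm7 values was not tested.

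The other members had log2 fold changes between NTY and sham MII oocytes of 0.19 ± 0.46 for Izumo1r, -0.31 ± 0.31 for Astl and -0.36 ± 0.53 for Cacna1h. Cd9 had 0.68 ± 0.84 and Itpr1 0.36 ± 0.47. For these 5 and Trpm7 the edgeR adjusted p was 1.00. The signs of Izumo1r, Cd9 and Itpr1 each turned when a particular NTY library was left out, with values of -0.12 without replicate 1, -0.20 without replicate 2 and -0.080 without replicate 3.

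**Figure D5:**
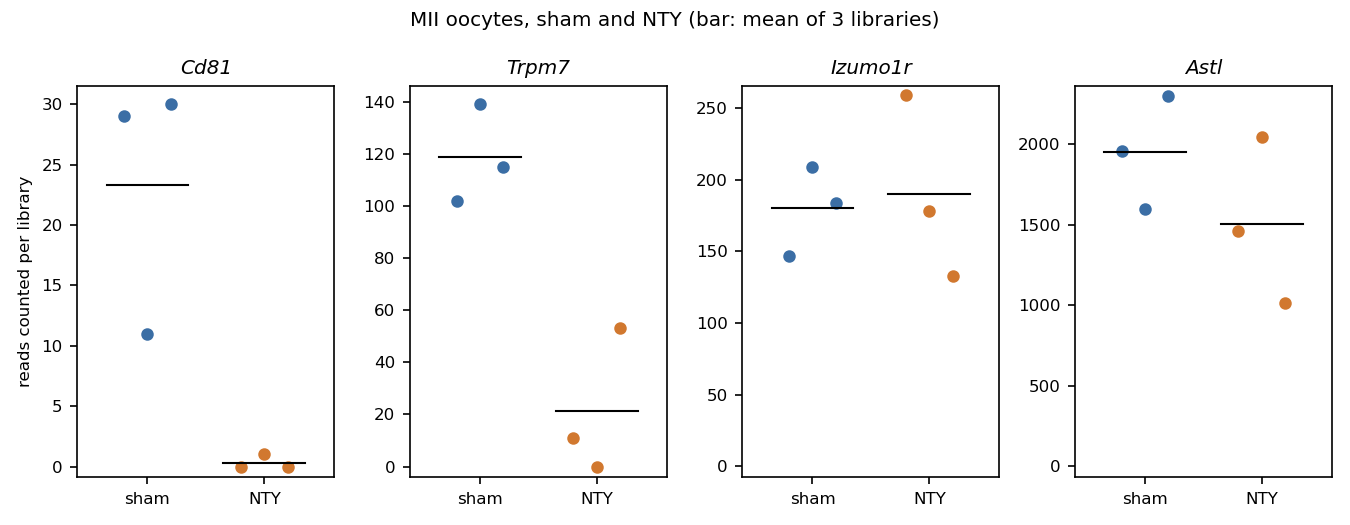
Reads counted per MII library (vertical axes, from 0, each with its own range) for Cd81, Trpm7, Izumo1r and Astl in sham and NTY, 1 point for each of 3 libraries and a bar at the mean. Cd81 has 11 to 30 reads in sham and at most 1 in NTY, and Trpm7 102 to 139 against 0 to 53, while Izumo1r and Astl overlap.

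Among genes with a mean of at least 10 CPM, the genes closest to each member in log2(CPM + 1) over the 18 libraries were listed by Pearson r, a description in which the libraries share the split between library methods. The closest to Izumo1r was Hpf1 (r = 0.979, and 0.903 within the 12 microdissected libraries), followed by Gas2l3 (0.979 and 0.941), and the closest to Astl was Rtf2 (0.958 and 0.943), followed by Casp8ap2 (0.957 and 0.890). Cd9 was closest to Klhl20 (0.860 and 0.873), then Bex3 (0.844 and 0.894), the lowest leading value of the 7. Cd81 was closest to Npr2 (0.950 and 0.878), then Caprin1 (0.940 and 0.909). Itpr1 was closest to Macf1 (0.969, but 0.741 within the microdissected libraries), then Sptbn1 (0.955 and 0.533). Trpm7 was closest to Rps6ka1 (0.899 and 0.875), then Mbnl2 (0.895 and 0.884), and Cacna1h to Usp34 (0.935 and 0.940), then Etf1 (0.915 and 0.888). Within the 6 MII libraries alone r was negative for Gas2l3 (-0.786), Casp8ap2 (-0.504), Rtf2 (-0.427) and Usp34 (-0.397). It was 0.0602 for Caprin1 and 0.618 to 0.864 for 7 others, and has no value for Npr2 and Mbnl2. Among the members themselves, r over the 12 microdissected libraries was -0.390 to 0.556.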

How the data were processed

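Bulk RNA sequencing libraries were grouped by their labels, and the 7 genes and the gene and marker lists were chosen with earlier results of these data known. The authors deposited raw read counts per gene, and TPM values normalized by gene length and library. The submitters' processing notes name Trim Galore 0.4.1, TopHat2, featureCounts and the mm10 build, and annotation, strand setting and handling of shared reads are not given in the sources used here. Reads of overlapping genes could therefore not be told apart.

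Counts were tested with edgeR 4.0.16 (robust quasi-likelihood, TMM, filterByExpr, no replicate block) in R 4.3.3 with Benjamini-Hochberg adjustment over all genes and a threshold of 0.05. The 12 microdissected libraries were fitted together, the 6 MII libraries alone and all 18 for MII against primary follicles, and scripts were tested on simulated data. Alternatives were RLE factors, DESeq2 1.42.0, limma 3.58.1 with voom or on log2(TPM + 1) where 3 libraries or more reached a TPM of 1, no filter, a replicate block, the compared groups alone, summing primary NTY replicates 2 and 3, and leaving out each replicate. Exact permutations, group overlap and count ratios were added after values were seen. The rule for genes counted in MII sham but not in MII NTY libraries was not among the planned comparisons either. Genes named were the members, genes of the lists, and the 2 genes closest to each member by r with a mean of at least 10 CPM. Gene positions came from GENCODE M21.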

Additional observations from a re-analysis of the deposited data

How the results depend on the processing

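Under every alternative, the replicate block and each left-out replicate included, 0 of 7 members were called for NTY against sham at each of the 3 stages, for primary against primordial follicles and for the NTY effect compared between these stages. For MII against primary follicles in sham, 2 members were called, but 0 with RLE factors, 1 without a filter on low counts, 1 with the replicate block, 5 with DESeq2, 5 with voom, 5 with only the groups compared, 6 with limma on log2(TPM + 1), and 0 to 1 without a replicate. In NTY 3 were called, 6 with DESeq2, 2 with the replicate block and 2 to 3 without a replicate. The cause was not tested. Without a replicate, the log2 fold change of NTY against sham in MII oocytes ran from -0.12 to 0.34 for Izumo1r, from -0.20 to 1.20 for Cd9 and from -0.080 to 0.79 for Itpr1.

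Over all genes, the count for MII against primary follicles in sham was 3660, against 5626 with DESeq2, 9025 with voom, 6329 with limma on log2(TPM + 1), 6750 with only the groups compared, 1720 without a filter, 1714 with the block and 97 to 201 without a replicate. In NTY it was 4882, against 2770 with the block, 2571 with the summed replicates and 426 to 2782 without a replicate. The calls higher in MII were 4260 of 4800 in sham with RLE factors and 2789 of 3660 with TMM. For NTY in primary follicles voom called 58 genes, and for the stages in sham 104. The median log2 fold change of all genes for the follicle stages, mean of both treatments, was 0.29 with TMM and 0.14 with RLE factors, and Itpr1 and Cd9 kept their sign. Same-numbered libraries did not deviate together (mean correlations from -0.0176 to 0.0264). With 3 libraries in each group, these values cannot tell whether the numbers pair libraries. In MII oocytes 3 counts are 0.301 to 0.347 CPM, and Cd81 in NTY lies under that floor in each library.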
